A study of Rattus norvegicus with 15 samples.

Results

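The response of rat H9c2 myoblasts to all-trans retinoic acid (RA) at day 14 was set against their response at day 7, by testing for each gene whether the change from T14-RA to T14+RA differed from the change from T7-RA to T7+RA. The contrast used 12 of the 15 RNA-seq libraries of the series, 3 in each of the groups T7-RA, T7+RA, T14-RA and T14+RA, and all 11574 genes of the deposited count table. H9c2 is an established line derived from rat heart muscle, and the libraries are labelled as wild type (WT) myoblasts. The cell line field of the labels names H9c2 only at day 0 and counts up from H9c3 to H9c14 over the 12 libraries, while the study describes H9c2 alone, and all libraries were taken as cultures of that 1 line. All 4 groups were kept in low-serum medium, and the cultures of T7+RA and T14+RA also received 1 µM RA each day, dissolved in DMSO, up to harvest at day 7 or day 14. Whether the cultures without RA received DMSO is not given in the sources used here. The study asked how culture time and RA each shape the transcriptome of these cells, and the contrast here asks for which genes the effect of RA depended on the day.

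RA enters the nucleus, binds the RA receptors (RAR), which pair with the retinoid X receptors (RXR) on response elements in DNA, and switches on target genes that include its own degrading enzymes of the CYP26 family. Myoblasts that are deprived of serum leave the cell cycle, fuse into myotubes and turn on the genes of the sarcomere, of calcium release and of the neuromuscular junction under MyoD and its relatives. RA can favour or hold back that programme, depending on the cells and on the stage at which it is given.

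The 12 libraries held between 544558 and 1030820 counts, with a median of 23 counts per gene and library, so differences of low genes were poorly resolved. The myoblast identity of the cultures was checked with Myod1, Myog, Des and Cdh15, whose summed expression lay between 914 and 1112 CPM (counts per 1e+06 counts of the library total, scaled by the TMM method of edgeR) in all 12 libraries, while the fifth marker, Myf5, is not among the measured genes. Within each group, replicate libraries were farther apart than counting error alone gives, with a chi-square per gene from 1.07 to 2.04, and T14+RA replicates 2 and 3 were the most distant pair. No library was left out.

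The RA response differed between the days for 144 of the 11574 genes (1.24%) at an edgeR adjusted p under 0.05. The response was higher at day 14 for 60 genes (0.518%) and lower at day 14 for 84 genes (0.726%). For comparison, RA changed 1089 genes at day 7 (9.41%) and 1579 genes at day 14 (13.6%), and an unadjusted p under 0.05 for the difference was reached by 1231 genes (10.6%). The median difference over all genes was 0.01 on the log2 scale, and the median absolute difference of the 144 genes was 0.93. Of the 144 genes, 139 had a mean of at least 10 counts per library. DESeq2 called 85 genes, 83 of them among the 144, and edgeR called 91 without T14-RA replicate 1.

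The called genes were sorted by the size and sign of their RA change on each day, which is a description, since the sorting uses the values that were tested. The response grew from day 7 to day 14 for 84 genes, of which 42 had a day 14 change above 0 and 42 one below 0. It faded for 51 genes, of which 38 had a day 7 change above 0 and 13 one below 0. It reversed for 9 genes, meaning that the change had opposite signs and passed the test on both days. The fitted RA change had opposite signs on the 2 days for 72 of the 144 genes, of which 37 were growing, 26 fading and 9 reversing, and in the growing and fading genes it had not passed the test on both. The 42 growing genes above 0 went from a median RA change of 0.05 at day 7 to 0.90 at day 14 on the log2 scale, and the 42 below 0 went from −0.11 to −1.20. The 38 fading genes above 0 went from a median of 0.97 to 0.10, and the 13 below 0 went from −1.50 to 0.31. Both days had passed the test for 40 of the 144 genes, day 7 alone for 37, day 14 alone for 63 and neither day for 4.

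**Figure D1:**
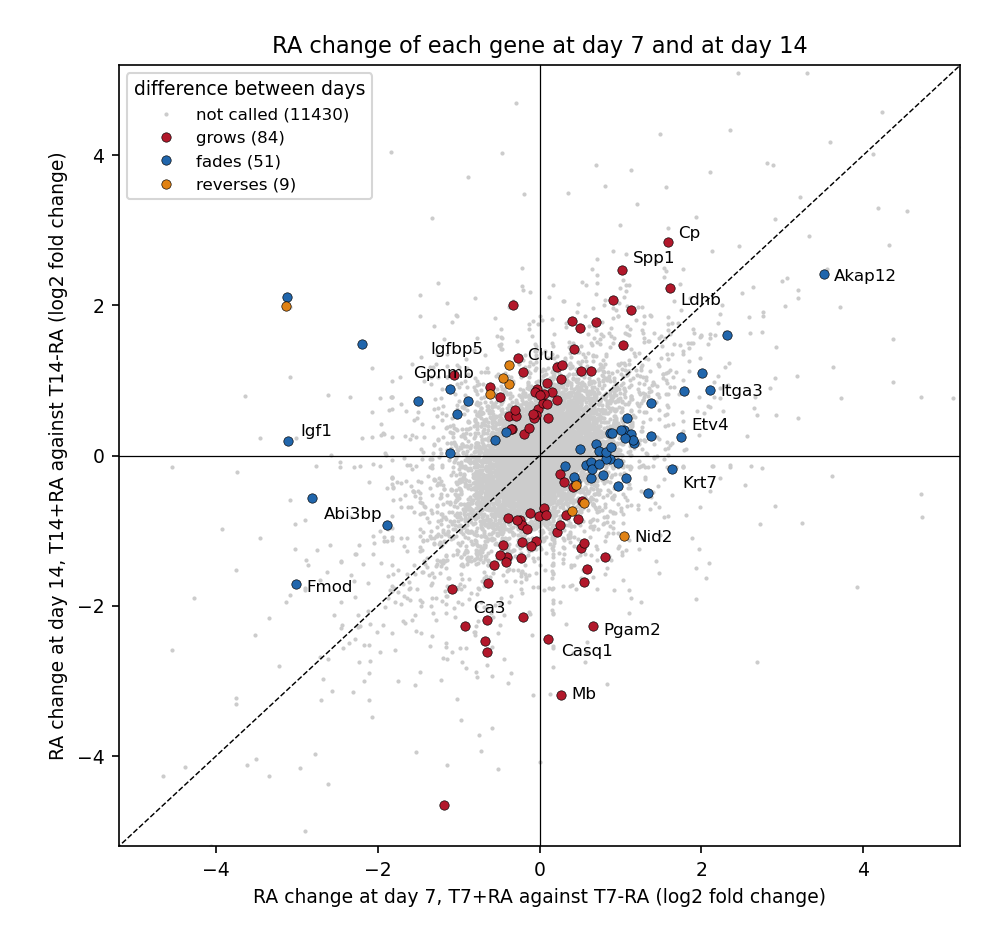
Each point is a gene, placed by its RA change at day 7 (x axis) and at day 14 (y axis), both as log2 fold changes from the 12 libraries; colours mark the 84 growing, 51 fading and 9 reversing responses, and the dashed line marks equal changes on both days. The called genes lie away from the dashed line, with Mb, Casq1 and Pgam2 near 0 at day 7 and far below 0 at day 14, and Igf1 and Abi3bp far below 0 at day 7; 21 genes that were not called lie outside the axes.

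The clearest reversals were those of Nid2, Igfbp5, Scd and Gpnmb, each of which had groups that did not overlap on either day. Nid2 encodes nidogen-2, a linker protein of the basement membrane. It stood at 229, 206 and 189 CPM in T7-RA and at 428, 445 and 413 CPM in T7+RA, against 209, 179.9 and 192 CPM in T14-RA and 90.7, 80.4 and 111 CPM in T14+RA. The cultures without RA were alike on both days, while those with RA were the highest of all groups at day 7 and the lowest at day 14. The log2 change by RA was 1.04 ± 0.105 (SE) at day 7 and −1.07 ± 0.138 at day 14, a difference of −2.11 ± 0.174 (edgeR adjusted p = 1.61e-15).

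Igfbp5, a secreted binding protein of insulin-like growth factors, turned the other way. Its level was 567, 563 and 727 CPM in T7-RA and 498, 427 and 506 CPM in T7+RA, but 1399.9, 1206 and 1482 CPM in T14-RA and 3078, 2785 and 3615 CPM in T14+RA. It rose in the second week without RA and rose further with RA, so that the group order at day 14 was the opposite of that at day 7. The difference in RA response was 1.58 ± 0.139 (edgeR adjusted p = 2.73e-12), from −0.37 at day 7 to 1.21 at day 14.

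Scd, the desaturase that makes monounsaturated fatty acids, was 542, 471 and 602 CPM in T7-RA and 386, 396 and 398 CPM in T7+RA, and 593, 469 and 536 CPM in T14-RA and 1041, 1073 and 1202 CPM in T14+RA. Only the RA-treated cultures moved between the days, by 1.49 on the log2 scale (edgeR adjusted p = 7.34e-22), while the change without RA was −0.01. Its RA response differed by 1.49 ± 0.135 (edgeR adjusted p = 1.33e-13). Scd was the only called gene among the 36 measured genes of cholesterol and fatty acid synthesis, which had a median difference of 0.06 (0.518% of all genes were called higher).

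Gpnmb, a membrane glycoprotein of melanosomes and lysosomes, fell by 0.38 with RA at day 7 and rose by 0.95 at day 14 on the log2 scale. Its 3 libraries of T14+RA read 1454, 1608 and 1420.5 CPM, against 781, 800.0 and 729.9 CPM in T14-RA, 409, 369.5 and 334 CPM in T7+RA and 443, 512 and 503 CPM in T7-RA. The difference was 1.34 ± 0.129 (edgeR adjusted p = 2.21e-12). Maoa, the mitochondrial monoamine oxidase A, followed the same order, with 55.4 to 61.8 CPM in T7+RA below 86.9 to 92.9 CPM in T7-RA, and 124 to 158 CPM in T14+RA above 67.7 to 87.6 CPM in T14-RA. Its difference was 1.43 ± 0.232 (edgeR adjusted p = 1.31e-05).

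The reversals of Aif1l and Cit ran from higher to lower, as in Nid2. Aif1l, an actin-binding protein, was at 157, 156 and 156 CPM in T7-RA and 199.6, 210.2 and 213 CPM in T7+RA, against 133, 110.5 and 103 CPM in T14-RA and 81.8, 65.9 and 56.5 CPM in T14+RA. Its groups did not overlap on either day. Aif1l had a difference of −1.14 ± 0.201 (edgeR adjusted p = 0.00012), and Cit, the citron kinase of the cleavage furrow, one of −0.83 ± 0.178 (edgeR adjusted p = 0.00294). The groups of Cit overlapped at day 14. Hnrnph3, a relative of the splicing factor HNRNPH1, also met the definition, but its libraries held at most 14.5 CPM and it was named only after its values were seen.

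Several growing responses were those of muscle genes that rose in the second week without RA and stayed low with RA. Mb, which encodes the oxygen store myoglobin, stood at 4.76, 5.46 and 10.3 CPM in T7-RA and 4.37, 11.0 and 8.64 CPM in T7+RA. At day 14 it was at 136, 191 and 132 CPM without RA and at 16.8, 16.1 and 16.4 CPM with RA. Every T14-RA library lay far above all others, and the groups of day 7 overlapped. The RA change went from 0.26 ± 0.523 to −3.19 ± 0.269, a difference of −3.45 ± 0.588 on the log2 scale (edgeR adjusted p = 0.00013). In bulk RNA, fewer cells that express a gene and less RNA of that gene per cell cannot be told apart, and this holds for every value given here.

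Casq1, the calcium-binding protein of the sarcoplasmic reticulum in fast muscle, behaved alike. Its level was 22.6, 19.1 and 16.2 CPM in T7-RA, 13.1, 23.4 and 27.7 CPM in T7+RA, 165, 169 and 167 CPM in T14-RA and 33.5, 27.3 and 29.1 CPM in T14+RA. The difference was −2.55 ± 0.370 (edgeR adjusted p = 2.13e-06), and no effect of RA was detectable at day 7 (0.11 ± 0.310). Pgam2, the muscle form of phosphoglycerate mutase in glycolysis, was at 3.57, 6.83 and 5.90 CPM in T7-RA, at 5.83, 4.12 and 17.3 CPM in T7+RA, at 74.9, 89.1 and 73.8 CPM in T14-RA and at 9.86, 17.7 and 25.5 CPM in T14+RA. Its difference was −2.94 ± 0.640 (edgeR adjusted p = 0.00341). That call was lost without T7+RA replicate 3, where the difference was −2.15 (edgeR adjusted p = 0.261).

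Ca3, the carbonic anhydrase of slow muscle fibres, showed the effect at high counts. The libraries read 2678, 2637 and 3172 CPM in T7-RA, 2370.2, 2441 and 2528 CPM in T7+RA, 6225, 6409 and 6272 CPM in T14-RA and 1492, 1454 and 1306 CPM in T14+RA. It rose in the second week without RA and fell with RA, so that the groups of day 14 stood on either side of those of day 7. The difference of −1.94 ± 0.111 had the lowest p of all genes (edgeR adjusted p = 3.43e-23).

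Within the sarcomere list, 5 of 38 measured genes had a lower RA response at day 14 (0.726% of all genes) and none a higher one. With all 15 libraries in the fit 3 of the 38 were called, and by limma on quantile-normalized values 1. The median difference of the list was −0.26, against 0.01 over all genes, and 29 of the 38 values lay below 0. The median second-week change of the list was 1.97 without RA and 1.62 with RA, so the list as a whole rose in both media. RA lowered 12 of the 38 genes at day 7 (background 3.97%) and 24 at day 14 (background 6.8%). Klhl41, which stabilises thin filaments, was at 232, 262 and 302 CPM in T7-RA, 219, 224 and 233 CPM in T7+RA, 906, 998 and 907 CPM in T14-RA and 341, 347 and 409.8 CPM in T14+RA. It rose in the second week in both media, by 1.82 without RA and by 0.69 with RA, and the difference was −1.13 ± 0.146 (edgeR adjusted p = 6.87e-08). Myh4, the myosin heavy chain of the fastest fibres, was at 494, 353 and 467 CPM in T14-RA against 83.8, 94.9 and 120.2 CPM in T14+RA, and at 195, 157 and 196 CPM in T7-RA against 84.5, 136 and 131 CPM in T7+RA. RA thus held it lower on both days, and by more at day 14 (difference −1.54 ± 0.219, edgeR adjusted p = 9.32e-06). Myh4 has close relatives in its gene cluster, and how the counting split shared reads is not given in the sources used here.

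The other called sarcomere genes had smaller differences. Lmod3, which starts thin filaments, was at 264 to 285 CPM in T14-RA and 103 to 113 CPM in T14+RA, with a difference of −0.83 ± 0.221 (edgeR adjusted p = 0.0367) that was called in 3 of the 12 leave-one-out fits, each without 1 library. Mybph, a myosin-binding protein, was above its control at day 7 (119, 111 and 168 CPM against 98.8, 88.8 and 108 CPM) and below it at day 14 (394, 429 and 382 CPM against 516, 554 and 548 CPM). The change of day 7 by itself missed the test (edgeR adjusted p = 0.0583). Its difference was −0.84 ± 0.175 (edgeR adjusted p = 0.00233), and the call was lost without T7+RA replicate 3 (−0.63, edgeR adjusted p = 0.0911). Tnnc1, the troponin C of slow and cardiac muscle, was the exception in kind, since RA raised it on both days and the early induction faded. It stood at 656, 619 and 525 CPM in T7-RA and 1248, 1137 and 1225 CPM in T7+RA, and at 1077, 1147 and 977 CPM in T14-RA and 1389, 1505 and 1153 CPM in T14+RA. Its response went from 1.00 to 0.34, a difference of −0.66 ± 0.127 (edgeR adjusted p = 0.000701). For Tnnt2, the cardiac troponin T, the changes were −0.32 at day 7 and −0.24 at day 14, and the difference of 0.08 had a 95% interval from −0.20 to 0.35.

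The calcium handling list had a median second-week change of 0.51 without RA and 0.38 with RA. It had 4 of 31 genes called, all lower at day 14 (0.726% of all genes), and a median difference of −0.18. With all 15 libraries in the fit 1 of the 31 was called. Beside Casq1 they were Casq2, the cardiac calsequestrin, Stac3, an adaptor of the voltage sensor, and Jph2, which ties the reticulum to the surface membrane. Casq2 was higher with RA at day 7 (575, 570.1 and 657 CPM against 479.8, 481 and 557 CPM) and lower with RA at day 14 (667, 733 and 767 CPM against 864, 852 and 850.1 CPM), a difference of −0.50 ± 0.126 (edgeR adjusted p = 0.0222), although the change of day 7 by itself missed the test (edgeR adjusted p = 0.0801). Stac3 was at 53.1 to 63.5 CPM in T14-RA and 8.87 to 9.65 CPM in T14+RA, with a difference of −1.97 ± 0.540 (edgeR adjusted p = 0.0465). With 1 library left out in turn, Casq2 was called in 6 of 12 fits, and Jph2 and Stac3 in 2 each. The calcium channels and the pump named here were not called. Ryr2, the cardiac release channel that the study assayed, is not among the measured genes. The difference was −0.54 for Ryr1, the release channel of skeletal muscle (95% interval −1.26 to 0.18), −0.36 for Cacna1s (−1.32 to 0.60), 0.29 for Cacna1c (−0.20 to 0.79) and 0.15 for the calcium pump Atp2a2 (−0.08 to 0.38).

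Most fusion and junction genes also had differences below 0, with few calls. At day 7 RA raised 5 and lowered 2 fusion and adhesion genes (background 5.44% and 3.97%). It raised 3 and lowered 1 of the junction genes on that day. Of 16 genes of energy transfer, Mb and Pgam2 were called (0.726% of all genes were called lower), and the median was −0.29. Mymk, which encodes the fusion protein myomaker, was lowered by RA on both days, from 53.3 to 63.4 CPM to 27.7 to 36.3 CPM at day 7 and from 112 to 132 CPM to 19.7 to 32.2 CPM at day 14. The difference of −1.35 ± 0.316 (edgeR adjusted p = 0.00866) was lost without T7+RA replicate 3 (edgeR adjusted p = 0.0737) or without T14+RA replicate 1 (edgeR adjusted p = 0.116), and also by DESeq2 and by limma on quantile-normalized values. It was the only called gene of 17 in the list of fusion and adhesion, which had a median difference of −0.30 and 7 genes lower at an unadjusted p under 0.05, against 5.41% of all genes. Of 13 genes of the acetylcholine receptor and the junction, 8 were lower at that threshold, the median was −0.45, and Chrnb1 was called. Chrnb1, the beta subunit of the receptor, was induced by RA at day 7 (131, 128 and 140.0 CPM against 69.1, 71.0 and 61.9 CPM) and overlapped its control at day 14, with a difference of −1.07 ± 0.234 (edgeR adjusted p = 0.00402).

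Myod1, the master regulator of the myogenic programme, belonged to the fading inductions. Its libraries read 76.2, 92.9 and 97.3 CPM in T7-RA, 138, 165 and 150.4 CPM in T7+RA, 64.0, 96.2 and 82.4 CPM in T14-RA and 63.1, 78.8 and 56.5 CPM in T14+RA. T7+RA was the one group that stood apart. The RA change was 0.78 ± 0.149 at day 7 and −0.26 ± 0.181 at day 14, a difference of −1.04 ± 0.235 (edgeR adjusted p = 0.00599), and none of the other 19 myogenic transcription factors measured was called.

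The promoters of called muscle genes were read for the E-box CAGCTG, a letter string that MyoD and its relatives can bind. Promoters are those of RefSeq on the rat assembly GRCr8, 250 bases before to 50 after the start of the gene, printed on the strand of the gene with each CAGCTG in capitals. Of the 13 called genes in the 5 muscle lists, 9 matched a promoter and 6 of those held CAGCTG (66.7%), against 1252 of the 8079 promoters of measured genes (15.5%). Over all called genes the share was 20 of 101 (19.8%), over the growing or reversing genes that were lower with RA at day 14 it was 6 of 27 (22.2%), and over the fading genes that were higher with RA at day 7 it was 6 of 28 (21.4%). The 9 promoters are a small set chosen with the values known, so their share is given with no test. Uncalled genes of the same muscle lists were not counted apart, so the share cannot be tied to the RA difference. CAGCTG is its own reverse complement, so 1 search covers both strands, and a match is a description of the letters and not a binding site. The match in Chrnb1, whose induction faded, is not printed. The 5 shown are those of Casq1 (chr13:87212661-87212960, minus strand), Pgam2 (chr14:84897825-84898124, minus strand), Stac3 (chr7:65228225-65228524, plus strand), Myh4 (chr10:52421898-52422197, plus strand) and Klhl41 (chr3:74841868-74842167, plus strand).
Casq1: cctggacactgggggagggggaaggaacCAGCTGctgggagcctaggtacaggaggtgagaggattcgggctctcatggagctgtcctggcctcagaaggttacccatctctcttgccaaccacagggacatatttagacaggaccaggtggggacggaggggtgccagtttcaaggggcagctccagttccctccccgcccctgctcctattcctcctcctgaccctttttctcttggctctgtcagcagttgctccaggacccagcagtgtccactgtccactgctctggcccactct
Pgam2: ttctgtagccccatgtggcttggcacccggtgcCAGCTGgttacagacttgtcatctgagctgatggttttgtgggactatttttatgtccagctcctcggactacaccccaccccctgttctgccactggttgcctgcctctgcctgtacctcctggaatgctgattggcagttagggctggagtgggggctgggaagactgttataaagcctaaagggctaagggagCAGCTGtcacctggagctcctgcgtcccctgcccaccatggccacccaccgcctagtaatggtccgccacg
Stac3: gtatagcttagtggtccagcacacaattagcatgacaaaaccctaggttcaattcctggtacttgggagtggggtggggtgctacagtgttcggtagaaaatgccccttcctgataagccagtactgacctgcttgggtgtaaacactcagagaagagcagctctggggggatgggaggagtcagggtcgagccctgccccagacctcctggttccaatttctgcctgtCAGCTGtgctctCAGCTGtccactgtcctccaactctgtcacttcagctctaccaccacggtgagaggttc
Myh4: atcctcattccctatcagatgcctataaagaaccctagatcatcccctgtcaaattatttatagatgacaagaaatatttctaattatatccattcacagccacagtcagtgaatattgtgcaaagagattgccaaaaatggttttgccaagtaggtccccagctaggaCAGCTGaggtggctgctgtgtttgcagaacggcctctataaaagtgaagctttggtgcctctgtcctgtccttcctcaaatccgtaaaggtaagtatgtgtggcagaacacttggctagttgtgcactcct
Klhl41: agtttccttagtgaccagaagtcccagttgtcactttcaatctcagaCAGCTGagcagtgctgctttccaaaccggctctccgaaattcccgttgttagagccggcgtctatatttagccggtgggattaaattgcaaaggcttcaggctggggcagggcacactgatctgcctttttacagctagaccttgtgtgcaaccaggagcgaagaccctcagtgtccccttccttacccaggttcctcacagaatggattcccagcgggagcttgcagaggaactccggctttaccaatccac

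The half-site AGGTCA, which nuclear receptors such as RAR can bind, was also searched on both strands. It was held by 10 of the 101 matched promoters of called genes (9.90%) and by 11.0% of the promoters of measured genes. A direct repeat of 2 AGGTCA with 5 bases between them, searched on both strands, was in none of the 101 and in none of the 8079 windows.

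**Figure D2:**
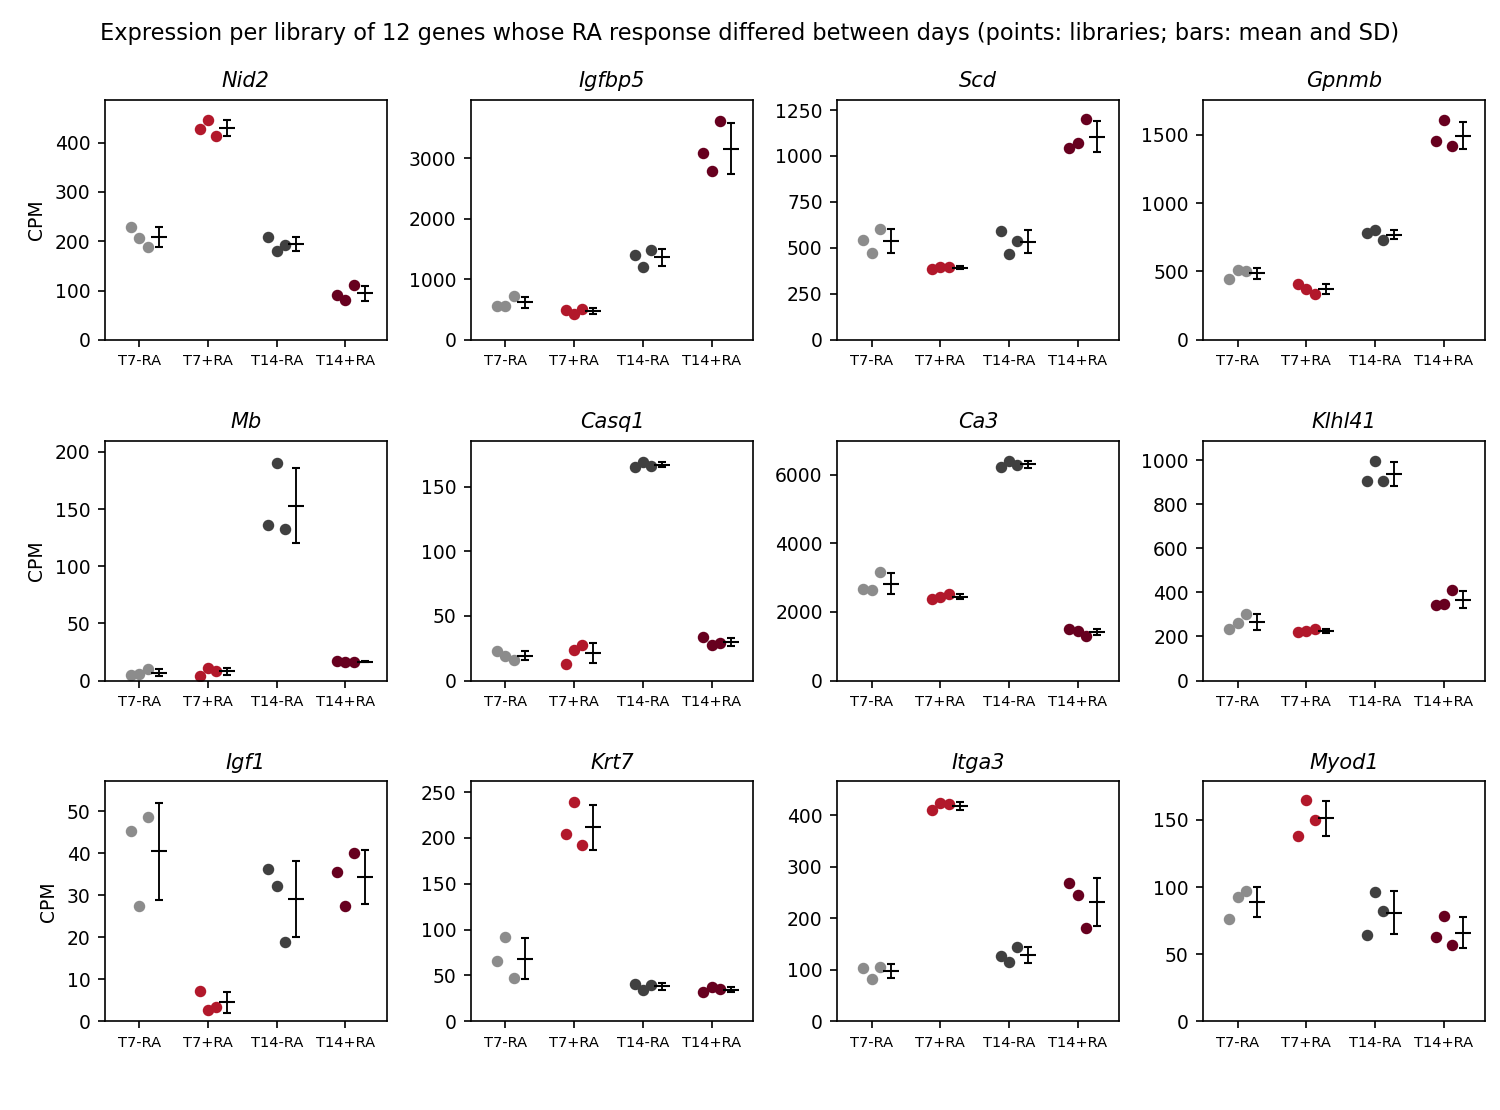
Expression in CPM of 12 genes whose RA response differed between the days, with a point for each of the 3 libraries of a group and the mean and SD beside them; every axis starts at 0. Nid2, Igfbp5, Scd and Gpnmb swap the order of the groups between day 7 and day 14, Mb, Casq1, Ca3 and Klhl41 are high in T14-RA, and Igf1, Krt7, Itga3 and Myod1 show their widest gap at day 7.

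The 42 growing responses that ended below 0, of which 41 passed the test at day 14 and 10 at day 7, also included Igf2 and matrix genes. Igf2, an embryonic growth factor of muscle, was at 1763, 1624 and 2099 CPM in T7-RA, 1332, 1405 and 1412 CPM in T7+RA, 2945, 2972 and 3028 CPM in T14-RA and 1263, 1118 and 1106 CPM in T14+RA. It rose in the second week without RA by 0.71 and fell by 0.25 with RA on the log2 scale, and the difference was −0.95 ± 0.117 (edgeR adjusted p = 1.39e-08). Eln, which encodes elastin, went from 1045, 976 and 904 CPM in T7-RA and 839, 883 and 802 CPM in T7+RA to 649.8, 709 and 647 CPM in T14-RA and 330.2, 334 and 222 CPM in T14+RA. Its difference was −0.94 ± 0.137 (edgeR adjusted p = 1.89e-06). Fn1, the fibronectin gene, was lowered by 0.39 at day 7 and by 0.83 at day 14, a smaller growth of −0.44 ± 0.112 (edgeR adjusted p = 0.0218) that was called in 5 of the 12 leave-one-out fits, each without 1 library.

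Smad7, the inhibitor of TGF-beta receptors, was at 23.3, 45.3 and 32.8 CPM in T7+RA, overlapping its control, and at 10.8, 12.9 and 5.46 CPM in T14+RA, below the 24.9 to 33.8 CPM of T14-RA. The difference was −2.09 ± 0.468 (edgeR adjusted p = 0.00341), and it missed the threshold without T7+RA replicate 2 (edgeR adjusted p = 0.0506). Bcam, a laminin receptor, was at 53.1 to 60.1 CPM in T14-RA and 14.6 to 20.9 CPM in T14+RA (difference −2.24 ± 0.477, edgeR adjusted p = 0.00233), and the call was lost without T7+RA replicate 1 (edgeR adjusted p = 0.082). Adam12, a protease of myoblast membranes, had a difference of −1.23 ± 0.277 (edgeR adjusted p = 0.011), although its groups overlapped on both days and the call held in 8 of the 12 leave-one-out fits. Il1r1, the receptor of interleukin-1, named after its values were seen, was at 15.8, 19.3 and 14.6 CPM in T14+RA against 31.4, 41.0 and 46.4 CPM in T14-RA, and had a difference of −1.73 (edgeR adjusted p = 0.0022).

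The growing responses that ended above 0 included secreted and matrix proteins. Spp1, which encodes osteopontin, was induced on both days, from 54.8, 80.6 and 75.2 CPM to 152, 146 and 124 CPM at day 7 and from 48.3, 42.8 and 44.7 CPM to 251, 261 and 253 CPM at day 14. The induction grew from 1.02 ± 0.155 to 2.48 ± 0.173, a difference of 1.45 ± 0.232 (edgeR adjusted p = 9.42e-06). Anxa1, a phospholipid-binding protein that dampens inflammation, rose by 0.51 at day 7 and by 1.12 at day 14, from 675 to 777 CPM in T14-RA to 1520.0 to 1652 CPM in T14+RA, and the difference was 0.61 ± 0.121 (edgeR adjusted p = 0.00105). Ltbp1, which stores latent TGF-beta in the matrix, followed with a difference of 0.49 ± 0.124 (edgeR adjusted p = 0.0214), called in 8 of the 12 leave-one-out fits.

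Col12a1, a collagen on the surface of fibrils, did not differ detectably at day 7 (0.04 ± 0.0985) and was at 712, 576 and 821 CPM in T14+RA against 487, 356 and 441 CPM in T14-RA. Its difference was 0.66 ± 0.142 (edgeR adjusted p = 0.00376). Over the whole matrix list, 4 of 53 genes had a higher response at day 14 (Spp1, Fmod, Col12a1 and Ltbp1, against 0.518% of all genes) and 5 a lower one (Nid2, Eln, Fbln1, Col8a1 and Fn1, against 0.726%), with a median of −0.17. The lower count was 7, beside 4 higher, by limma-voom, with relative log expression size factors and with either stricter filter on low counts. With all 15 libraries in the fit 2 were higher and 2 lower, and by limma on quantile-normalized values 1 and 1. With 1 library left out in turn, Fbln1 was called in 4 of 12 fits, Fn1 in 5, Col8a1 in 6 and Ltbp1 in 8. Metrn, a secreted factor of muscle and nerve, and Serpine2, a protease inhibitor, had differences of 2.33 ± 0.647 and 2.13 ± 0.607 (edgeR adjusted p = 0.0348 and 0.039), but were called in 3 and 2 of the 12 leave-one-out fits.

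Several growing responses above 0 from outside the lists were named after their values were seen. Clu, the extracellular chaperone clusterin, was at 365, 445 and 350.4 CPM in T14-RA and 771, 965 and 765 CPM in T14+RA, while its libraries of T7+RA (204, 191 and 197 CPM) lay below those of T7-RA (212, 236 and 236 CPM). Its difference was 1.32 (edgeR adjusted p = 2.81e-09). Ccdc80, a matrix protein, was at 1852, 1886 and 1742 CPM in T7-RA and 1799, 1768 and 1714 CPM in T7+RA, then at 993, 976 and 1053 CPM in T14-RA and 1864, 1927 and 1657 CPM in T14+RA. It fell in the second week without RA by 0.86, and with RA the change was 0.05. The difference of Ccdc80 was 0.91 (edgeR adjusted p = 2e-08).

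Gstp1, a glutathione transferase, and Vldlr, the receptor of very low density lipoprotein, had differences of 0.88 and 0.93 (edgeR adjusted p = 5.51e-06 and 7.62e-06). Cp, which encodes the copper-carrying ferroxidase ceruloplasmin, was raised from 32.8 to 35.4 CPM to 89.3 to 125 CPM at day 7 and from 49.9 to 71.3 CPM to 421 to 475 CPM at day 14 (difference 1.27, edgeR adjusted p = 0.0014). Ldhb, the lactate dehydrogenase subunit of oxidative tissue, was raised by 1.62 at day 7 and by 2.23 at day 14 (difference 0.62, edgeR adjusted p = 0.0105), and the call was lost without T7-RA replicate 2 (edgeR adjusted p = 0.0791). Slc2a4, the insulin-regulated glucose transporter, was at 63.1, 72.4 and 63.7 CPM in T14+RA and 32.6, 28.5 and 44.7 CPM in T14-RA, with overlapping groups at day 7 (difference 1.53, edgeR adjusted p = 0.0136, called in 8 of the 12 leave-one-out fits).

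Lysosomal genes were gathered into a list after these values were seen, so its counts are not independent evidence of a direction. Of its 45 measured enzymes and membrane proteins, 7 had a higher RA response at day 14 (0.518% of all genes) and none a lower one, 37 of 45 differences lay above 0 and the median was 0.23. Ctsd, the aspartic protease cathepsin D, was at 1900.2, 1984 and 1768 CPM in T7-RA and 1876, 1725 and 1813 CPM in T7+RA, then at 2238, 2211 and 2246 CPM in T14-RA and 3167, 3374 and 2910.3 CPM in T14+RA. The effect of RA appeared only in the comparison of day 14, where the groups did not overlap (difference 0.56, edgeR adjusted p = 0.00094). Lipa, the acid lipase, was raised on both days, from 157 to 229 CPM to 382 to 449 CPM at day 7 and from 166 to 177 CPM to 644 to 693 CPM at day 14 (difference 0.81, edgeR adjusted p = 0.000701). Grn, the precursor of the granulins, had a difference of 0.69 (edgeR adjusted p = 0.000587), and Dpp7, Ctsb, Ctsa and Gpnmb completed the 7. Ctsb and Ctsa were each called in 8 of the 12 leave-one-out fits, Ctsa was also lost with all 15 libraries and with thinned counts, and limma on quantile-normalized values called 1 gene of the list. None of the 16 subunits of the lysosomal proton pump was called by edgeR or DESeq2, with 6 higher by edgeR at an unadjusted p under 0.05 (5.23% of all genes) and a median of 0.24. Cd14, the one macrophage and leukocyte marker of 10 that was measured, stood at 38.4 to 59.5 CPM in T14+RA against 16.7 to 30.0 CPM in the other groups, and its part in these values was not tested.

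Of 77 measured genes for subunits of the respiratory chain, 2 were called, both higher at day 14 (0.518% of all genes), while none was called with all 15 libraries in the fit or by limma on quantile-normalized values, and DESeq2 called 1. By edgeR 27 were higher and none lower at an unadjusted p under 0.05, where 5.23% and 5.41% of all genes were higher and lower. The median difference was 0.35, and 69 of 77 values lay above 0. Without RA the median change in the second week was 0.28, and with RA it was 0.59. Atp5mg, a subunit of ATP synthase, was lowered by RA at day 7 (128, 147 and 166 CPM against 199, 209 and 178 CPM) and was at 231, 288 and 231 CPM in T14+RA against 200.5, 208 and 191 CPM in T14-RA. Its difference was 0.73 ± 0.172 (edgeR adjusted p = 0.00882), lost without T7+RA replicate 1 (edgeR adjusted p = 0.0633) and by DESeq2. Atp5f1b, the catalytic beta subunit, had a difference of 0.39 ± 0.109 (edgeR adjusted p = 0.0478) and was called in 1 of the 12 leave-one-out fits. The list of fatty acid oxidation had no call among 29 genes by edgeR with all 12 libraries and no replicate block or by DESeq2, with 5 higher by edgeR at an unadjusted p under 0.05 and a median of 0.16, and limma-trend, limma on quantile-normalized values and edgeR without T7+RA replicate 3 called 1 of them each. For Cpt1a, which admits fatty acids to the mitochondrion, the difference was 0.05 (95% interval −0.35 to 0.45).

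Early inductions that faded made up 38 genes, led by Krt7, Cd200, Etv4 and Dusp6. Krt7, a keratin of simple epithelia, was at 65.5, 91.5 and 47.2 CPM in T7-RA and 204, 239 and 192 CPM in T7+RA, against 41.1, 33.9 and 39.5 CPM in T14-RA and 31.5, 37.0 and 34.6 CPM in T14+RA. The gap of day 7 was gone at day 14, where the groups overlapped. Its difference was −1.82 ± 0.296 (edgeR adjusted p = 2.43e-05). Of 10 epithelial markers only Krt7 and Krt8 were measured, and their summed level was 221 to 269 CPM in T7+RA against 57.2 to 128 CPM in the other groups, with Krt7 counted in that sum. Of the 2, only Krt7 passed the test at day 7. The difference of Krt8 lay above 0, opposite in sign to that of Krt7, so the sum does not show a shared rise of both markers. Whether epithelial-like cells took part in these values was not tested. Cd200, a membrane glycoprotein of the immunoglobulin family, was at 69.9, 59.1 and 60.5 CPM in T7+RA against 22.1 to 28.6 CPM in T7-RA, and at 9.65 to 13.8 CPM in T14+RA against 15.5 to 19.6 CPM in T14-RA (difference −1.83 ± 0.441, edgeR adjusted p = 0.0111, not called by DESeq2).

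Etv4, a transcription factor downstream of growth factor signalling, was at 32.1, 24.6 and 20.6 CPM in T7-RA and 101, 81.0 and 83.0 CPM in T7+RA, and at 36.2, 41.0 and 29.2 CPM in T14-RA and 34.5, 61.1 and 34.6 CPM in T14+RA. The difference was −1.49 ± 0.339 (edgeR adjusted p = 0.00599), lost without T14+RA replicate 1 (edgeR adjusted p = 0.0556). Dusp6, a phosphatase that switches off ERK, had a difference of −1.38 ± 0.318 (edgeR adjusted p = 0.00772). T14-RA replicate 2 stood apart for it at 76.6 CPM beside 32.6 and 37.8 CPM, and without that library the difference was −0.94 (edgeR adjusted p = 0.184), while without T14+RA replicate 1 it was −1.21 (edgeR adjusted p = 0.073). Ccnd1, cyclin D1, named after its values were seen, was at 1535, 1548 and 1466 CPM in T7+RA against 806 to 885 CPM in T7-RA, and overlapped its control at day 14 (difference −0.87, edgeR adjusted p = 4.45e-07). In a list of 15 genes of ERK feedback, gathered after the values were seen, these 3 were called (0.726% of all genes were called lower) and the median difference was −0.70. DESeq2 called 2 of the 15, and limma on quantile-normalized values called none.

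Of the measured integrins, Itga3 and Itga5 were among the fading inductions. Itga3, the laminin-binding integrin alpha3, was at 104, 81.9 and 106 CPM in T7-RA and 409, 424 and 422 CPM in T7+RA, and at 127, 114 and 144 CPM in T14-RA and 268, 246 and 180.3 CPM in T14+RA. RA raised it on both days with groups that did not overlap, by 2.10 ± 0.131 at day 7 and by 0.88 ± 0.133 at day 14, a difference of −1.22 ± 0.186 (edgeR adjusted p = 5.25e-06). Itga5, the fibronectin-binding alpha5, was at 408, 404 and 423 CPM in T7+RA against 289, 257 and 243 CPM in T7-RA, and at 249, 212 and 224 CPM in T14+RA against 250.0, 239 and 244 CPM in T14-RA. Its difference was −0.72 ± 0.149 (edgeR adjusted p = 0.00175). These were the 2 called genes of 19 measured integrins (0.726% of all genes were called lower), whose median difference was −0.23. DESeq2 called 3 of the 19, and limma on quantile-normalized values called none. Akap12, a scaffold of protein kinase A named after its values were seen, was induced on both days, from 136, 172 and 153 CPM to 1744, 1829.7 and 1679.9 CPM at day 7 and from 244, 162 and 196 CPM to 1171, 1004 and 1080.0 CPM at day 14 (difference −1.10, edgeR adjusted p = 6.46e-07).

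Smad3, a transducer of TGF-beta, rose with RA at day 7 (221, 250.0 and 264 CPM against 140.5, 143 and 156 CPM) and overlapped its control at day 14 (216, 195 and 224 CPM against 240.4, 216 and 225 CPM). Its difference was −0.85 ± 0.164 (edgeR adjusted p = 0.000708), and Smad3 and Smad7 were the 2 called genes of 35 in TGF-beta and BMP signalling (0.726% of all genes were called lower). By limma on quantile-normalized values none of the 35 was called. Ccn2 and Ankrd1, textbook targets of the coactivator YAP, were named after their values were seen. RA raised Ccn2 by 0.88 at day 7 and by 0.30 at day 14 (difference −0.57, edgeR adjusted p = 0.00688), and Ankrd1 by 0.50 at day 7, with 0.10 at day 14 (difference −0.40, edgeR adjusted p = 0.036). Without T7+RA replicate 2 the difference of Ccn2 missed the threshold (edgeR adjusted p = 0.0506), and Ankrd1 was called in 4 of the 12 leave-one-out fits. A list of 15 YAP and TEAD targets, also gathered after the values were seen, had 3 called lower at day 14 with Ptpn14 (0.726% of all genes), and 1 called higher (0.518% of all genes), the tissue factor gene F3, and its median was −0.40. The RA change of Ptpn14 went from −0.16 at day 7 to −0.97 at day 14, a growing response and not a fading induction. Ptpn14 was called in 8 of the 12 leave-one-out fits and not by DESeq2 or with all 15 libraries. F3 (difference 0.99, edgeR adjusted p = 0.0478) was called in 3 of the 12 leave-one-out fits, and not by DESeq2, by the limma fits, with thinned counts or with all 15 libraries. With all 15 libraries in the fit the list had 1 called lower and 0 higher, DESeq2 called 2 lower, and limma on quantile-normalized values called none.

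The 13 fading genes below 0 at day 7 included 11 whose day 7 change passed the test. Igf1, the main growth factor of muscle, was at 45.2, 27.3 and 48.7 CPM in T7-RA and 7.28, 2.75 and 3.46 CPM in T7+RA, but at 36.2, 32.1 and 18.9 CPM in T14-RA and 35.5, 27.3 and 40.1 CPM in T14+RA. The 3 libraries of T7+RA were the lowest of the 12, and the groups of day 14 overlapped. The RA change went from −3.11 ± 0.518 to 0.20 ± 0.274, a difference of 3.31 ± 0.586 (edgeR adjusted p = 4.32e-06). With Igfbp5 and Igf2 it was 1 of 3 called genes among 16 of the insulin-like growth factor and PDGF systems (1.24% of all genes were called), and the 3 belonged to 3 different classes.

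Abi3bp, a matrix protein that binds the adaptor ABI3, was at 47.6, 38.2 and 44.2 CPM in T7-RA and 4.37, 5.49 and 8.64 CPM in T7+RA, and at 36.2, 55.2 and 46.4 CPM in T14-RA and 27.6, 28.9 and 36.4 CPM in T14+RA (difference 2.25 ± 0.501, edgeR adjusted p = 0.0013). Fmod, the collagen-binding fibromodulin, remained repressed on both days. It was at 143, 152 and 209 CPM in T7-RA, 17.5, 22.0 and 22.5 CPM in T7+RA, 406, 404 and 361 CPM in T14-RA and 115, 135 and 109 CPM in T14+RA. The repression shrank from −3.01 ± 0.246 to −1.71 ± 0.126, a difference of 1.30 ± 0.276 (edgeR adjusted p = 0.00122). Ppp2ca, a catalytic subunit of protein phosphatase 2A, had a difference of 2.24 ± 0.455 (edgeR adjusted p = 0.000832). P2rx4, an ATP-gated channel, and Msantd3 had differences of 1.60 ± 0.409 and 1.57 ± 0.411 (edgeR adjusted p = 0.0173 and 0.0223), each called in 8 of the 12 leave-one-out fits, and Sod3, the extracellular superoxide dismutase, one of 1.99 ± 0.583 (edgeR adjusted p = 0.0478), called in 2 of them. The day 7 change of Sod3 missed the test (−1.10, edgeR adjusted p = 0.126).

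Genes of the RA pathway itself were not called by edgeR or DESeq2 with all 12 libraries at full depth. None of 15 measured genes of retinoid metabolism, of 14 receptors and cofactors or of 16 known RA targets passed the test for the difference in these 2 fits, and 2, 2 and 1 of them were higher and 0 lower at an unadjusted p under 0.05 by edgeR. Other settings called a few of them: limma-trend called 1 gene of retinoid metabolism and 2 RA targets, and limma on quantile-normalized values and edgeR on thinned counts called 1 RA target each. Leaving out 1 library gave 1 RA target without T7+RA replicate 1 and 1 receptor or cofactor without T14-RA replicate 1. Of the same lists, 5, 2 and 8 genes were raised by RA at day 7 (background 5.44%) and 4, 3 and 9 at day 14 (background 6.84%). Dhrs3, which reduces retinaldehyde to retinol, was raised by 5.35 ± 0.356 at day 7 and by 5.15 ± 0.300 at day 14, from at most 15.7 CPM without RA to 294 to 304 CPM and 379 to 442 CPM with RA. The difference was −0.21, with a 95% interval from −1.13 to 0.72. Rai14, an RA-induced actin-bundling protein, was raised by 1.30 on both days, and its difference of −0.00 had an interval from −0.32 to 0.32. Rara and Rarg, the receptor genes, had differences of −0.25 (−0.82 to 0.32) and 0.17 (−0.26 to 0.60), and Aox1, an oxidase that can act on retinaldehyde, 0.94 (−0.02 to 1.90).

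Cyp26b1, which degrades RA, was at 191, 207 and 216 CPM in T7+RA and at 662, 671 and 599 CPM in T14+RA. With RA it rose in the second week by 1.66 ± 0.108 on the log2 scale (edgeR adjusted p = 7.9e-22). The 6 libraries without RA held 2 counts of it in 1 library at each day and 0 in the others, so the RA change on each day has no firm base, and the difference between the days had a 95% interval from −1.35 to 4.35. The Cyp26b1 difference was called in 1 of 23 other settings, by limma-trend (adjusted p = 0.0278, against 0.998 by DESeq2), and ranged from −1.05 without T7-RA replicate 1 to 4.26 without T14-RA replicate 3.

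The same difference can be read as the second-week change with RA against that without RA. Of the 84 growing responses, 42 had a second-week change past the test with RA only, 18 without RA only, 22 in both media and 2 in neither. Fading responses moved mostly with RA, with 33 of 51 changed with RA only and 7 without RA only. Of the 9 reversing genes, 5 changed with RA only and 4 in both media. Mb rose by 4.47 without RA and had a change of 1.02 with RA (edgeR adjusted p = 0.0945), Casq1 rose by 3.08 against a change of 0.53 (edgeR adjusted p = 0.224), and Bcam rose by 2.27 against 0.03 (edgeR adjusted p = 0.972).

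**Figure D3:**
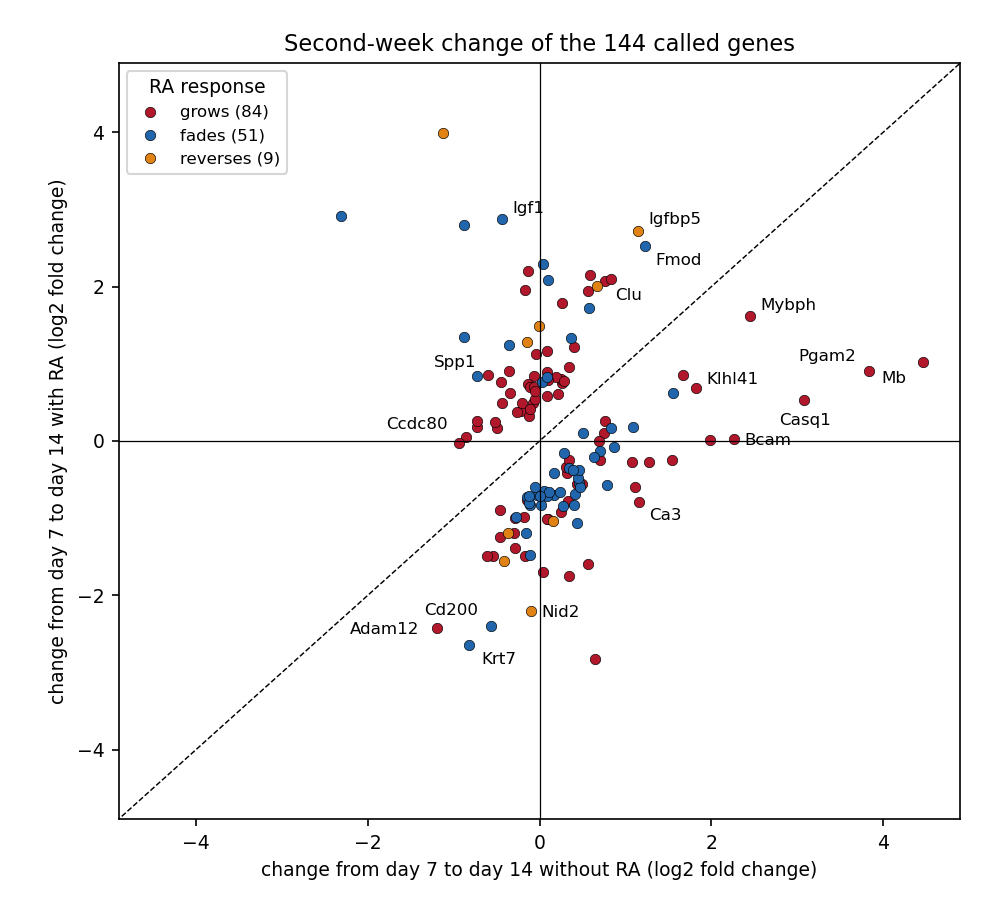
Change from day 7 to day 14 of the 144 called genes without RA (x axis) and with RA (y axis), as log2 fold changes; the distance from the dashed line is the difference in RA response. Mb, Pgam2 and Casq1 lie far to the right, with larger changes without RA than with RA, while Nid2, Krt7 and Cd200 lie near the lower end of the y axis and Igf1 and Igfbp5 near the upper end.

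The other lists given here held at most 3 calls each, where 1.24% of all genes were called. DNA replication and mitosis, with 45 measured genes each, had none, and the Notch and Wnt pathways (32 genes), interferon response (24 genes) and caveolae (11 genes) had none either, by edgeR with all 12 libraries and no replicate block or by DESeq2. Leaving out 1 library gave 1 gene of caveolae without T7-RA replicate 3 and 1 of DNA replication without T14-RA replicate 2. At an unadjusted p under 0.05 by edgeR, 2 replication genes were higher and 1 lower, 4 mitosis genes were lower, 4 Notch and Wnt genes were lower, 3 interferon genes were higher and 2 lower, and 1 gene of caveolae was higher and 1 lower. The smooth muscle list had 1 call of 21, Myl9, a regulatory myosin light chain (difference 0.53 ± 0.131, edgeR adjusted p = 0.018, called in 6 of the 12 leave-one-out fits), and the stress list 1 of 34, the transcription factor Atf5 (0.64 ± 0.169, edgeR adjusted p = 0.0321, called in 4 of them). Proteases and their inhibitors had 3 of 27, namely Serpine2, Adam12 and Serpinf1, an inhibitor that acts on blood vessels (−0.64 ± 0.156, edgeR adjusted p = 0.0134, called in 7 of them). Of these 27 genes, DESeq2 called 1, and limma on quantile-normalized values called none.

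**Figure D4:**
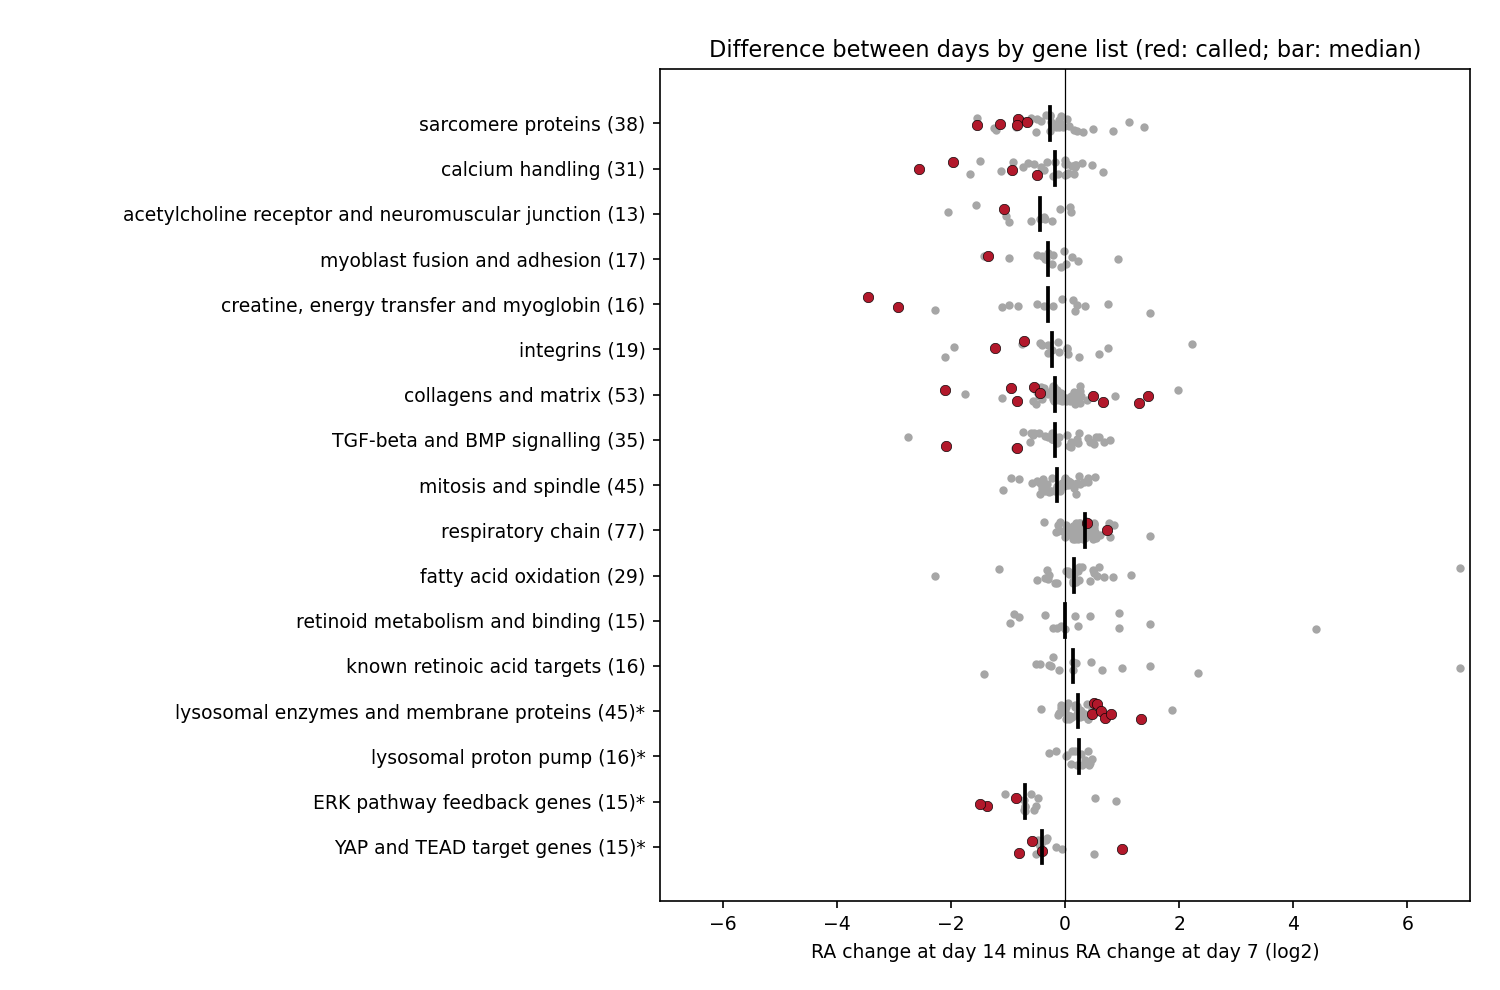
Difference in RA response, day 14 minus day 7, on the log2 scale, for the measured genes of 17 lists; red points are called genes, bars are list medians, numbers in brackets are genes, and asterisks mark the 4 lists gathered after the values were seen. Muscle lists have medians below 0 (−0.26 for the sarcomere), the respiratory chain sits at a median of 0.35, and most single genes are not called.

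Markers of other cells were few in the table. Of 10 markers each, 3 were measured for adipocytes, 3 for cartilage and bone, and 2 for endothelium. Their summed levels were at most 87.3 CPM in every library, with adipocyte markers at 23.4 to 27.7 CPM in T7+RA and 34.6 to 61.1 CPM in T14+RA against 44.1 to 87.3 CPM without RA. Cartilage and bone markers were at 14.5 to 29.6 CPM in T14+RA against 39.3 to 57.4 CPM in the other groups, and endothelial markers at 9.66 to 32.1 CPM over all 12 libraries. Their part in the results was not tested.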

How the data were processed

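RNA-seq libraries of H9c2 cultures were used as gene counts. The deposited table holds raw counts per gene for 15 libraries, which the authors made with HISAT2, featureCounts and the rat assembly Rnor_6.0 according to the submitters' processing notes; versions, annotation release and strand setting are not given in the sources used here. Without the strand setting, reads of overlapping or antisense genes cannot be told apart with certainty. How reads shared with close relatives were counted, as for Myh4 or Ppp2ca, is also not given in the sources used here. The table was already filtered by the authors, since every gene has a count above 20 in sum over the 15 libraries (smallest 21). Its gene length column was not used.

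All 11574 genes of the 12 libraries of day 7 and day 14 were fitted in R 4.3.3 with edgeR 4.0.16 (TMM scaling, robust quasi-likelihood F test, 1 mean for each of the 4 groups). The contrast was (T14+RA − T14-RA) − (T7+RA − T7-RA), with p-values adjusted by Benjamini-Hochberg over all genes and a call at an adjusted p under 0.05. The labels do not say which libraries share a culture, so p-values measure the spread between the 3 libraries of a group, which are described as biological replicates. A called gene reverses where its changes have opposite signs and both pass the test, grows where the absolute change is larger at day 14, and otherwise fades. CPM are counts per 1e+06 counts of TMM-scaled totals, ± is the standard error (SE) of a log2 change, and intervals are at 95%. An exact permutation test of 3 against 3 libraries cannot go below p = 0.1, so no single-gene permutation was used.

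The alternatives were an adjusted p of 0.001, all 15 libraries, other size factors, filters on low counts, limma 3.58.1 (voom, trend, quantile), DESeq2 1.42.0, a replicate block, thinned counts and each library left out in turn. On simulated counts for all 11574 genes with 100 genes changed by a log2 difference of 1 and 100 by 2, edgeR recovered 30 and 72 of them. Of its 118 calls, 16 were false (13.6%, above the 5% aimed at), against 3 of 86 with DESeq2 (3.49%).

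Genes were named as the 10 largest differences among growing and among fading genes with a mean of at least 10 counts, all reversing genes with that mean, called members of the gene lists, genes of the study's subject, and Rara and Rarg. The gene AC128207.1, which has no usual symbol, is given only by its difference, and 1 gene that met the naming rule is not reported here. The genes and lists were chosen with earlier results of these data known, and those said to be named or gathered after their values were seen were added last. Promoters came from RefSeq (GRCr8), matched by symbol, for 101 of the 144 called genes.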

Additional observations from a re-analysis of the deposited data

Results flagged for a closer look

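For 77 named genes a direct test found that the change by RA was not the same at day 7 and at day 14 (edgeR, adjusted over all genes). All differences below are day 14 minus day 7 on the log2 scale. Groups of 3 libraries are too small to test single libraries as outliers. For responses that grew and ended above 0, the difference was 2.33 for Metrn, 2.13 for Serpine2, 1.53 for Slc2a4, 1.45 for Spp1, 1.32 for Clu, 1.27 for Cp, 0.99 for F3 and 0.93 for Vldlr. It was 0.91 for Ccdc80, 0.88 for Gstp1, 0.81 for Lipa, 0.69 for Grn, 0.66 for Col12a1, 0.64 for Atf5, 0.63 for Dpp7 and 0.62 for Ldhb. It was 0.61 for Anxa1, 0.56 for Ctsd, 0.53 for Myl9, 0.51 for Ctsb, 0.49 for Ltbp1, 0.48 for Ctsa and 0.39 for Atp5f1b. For responses that grew and ended below 0, it was −3.45 for Mb, −2.94 for Pgam2, −2.55 for Casq1, −2.24 for Bcam, −2.09 for Smad7, −1.97 for Stac3, −1.94 for Ca3 and −1.79 for AC128207.1. It was −1.73 for Il1r1, −1.54 for Myh4, −1.35 for Mymk, −1.23 for Adam12, −1.13 for Klhl41, −0.95 for Igf2, −0.94 for Eln and −0.84 for Mybph. It was −0.83 for Lmod3, −0.81 for Ptpn14, −0.64 for Serpinf1, −0.50 for Casq2 and −0.44 for Fn1. For inductions that faded, it was −1.83 for Cd200, −1.82 for Krt7, −1.49 for Etv4, −1.38 for Dusp6, −1.22 for Itga3, −1.10 for Akap12, −1.07 for Chrnb1 and −1.04 for Myod1. It was −0.93 for Jph2, −0.87 for Ccnd1, −0.85 for Smad3, −0.84 for Fbln1, −0.72 for Itga5, −0.66 for Tnnc1, −0.57 for Ccn2 and −0.54 for Col8a1. It was −0.40 for Ankrd1. For repressions that faded, it was 3.31 for Igf1, 2.25 for Abi3bp, 2.24 for Ppp2ca, 1.99 for Sod3, 1.60 for P2rx4, 1.57 for Msantd3, 1.30 for Fmod and 0.73 for Atp5mg. For reversals that ended above 0, it was 5.12 for Hnrnph3, 1.58 for Igfbp5, 1.49 for Scd, 1.43 for Maoa and 1.34 for Gpnmb. For reversals that ended below 0, it was −2.11 for Nid2, −1.14 for Aif1l and −0.83 for Cit.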

How the results depend on the processing

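In each alternative, those of the 144 calls that it tested kept their sign, but the number of calls moved. With a mean of at least 10 counts 139 of the 144 were tested. Of the named genes, Hnrnph3 was left out by both stricter filters, and DESeq2 gave no adjusted p for Hnrnph3, Metrn, Serpine2, Stac3 and Sod3. At an adjusted p under 0.001 the RA response difference, day 14 minus day 7, was called for 34 genes, the RA response at day 7 for 457 and the RA response at day 14 for 696. With DESeq2 the counts were 85, 632 and 894, and with limma on quantile-normalized log2(count + 1) they were 27, 590 and 986. Growing, fading and reversing genes numbered 53, 28 and 4 with DESeq2. With all 15 libraries in the fit the difference was called for 86 genes. The cause of these shifts was not tested. Of the 27 genes by limma on quantile-normalized values, 20 were among the 144. Named genes not called by DESeq2 were Cd200, P2rx4, Msantd3, Slc2a4, Dusp6, Mymk, Jph2, Lmod3, Fbln1, Col8a1, Serpinf1, Ptpn14, F3, Atf5 and Atp5mg. With other size factors, filters, limma-voom, limma-trend or thinned counts the difference was called for 117 to 157 genes. Leaving out 1 library in turn gave 91 (without T14-RA replicate 1) to 186 genes (without T14+RA replicate 3) for the difference, 829 to 1173 for day 7 and 1173 to 1610 for day 14. Of the 77 named genes that were called, 41 were called in every such fit, and 16 in fewer than 8 of 12.

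Replicate numbers were not taken as pairs in the main fit, since the labels do not say which libraries share a culture. The deviations of the libraries from their group means were correlated between groups. Same-numbered pairs lay between −0.04 and 0.15 (mean 0.03) and different-numbered pairs between −0.14 and 0.07 (mean −0.015). With the replicate number as a block, the replicate block called 213 genes, the 144 among them. In that fit the matrix list had 4 genes higher and 11 lower, the respiratory chain 5 higher, the lysosomal list 10 higher, and DNA replication and fatty acid oxidation 1 higher each. Over the 23 settings at an adjusted p under 0.05, 15 of the 144 were called in all and 32 in fewer than 12, where a setting that did not test a gene counts as no call, and at 0.001 Abi3bp and Il1r1 were lost from the 15. Totals of 544558 to 1030820 counts limit low genes: in simulation edgeR recovered none of 34 genes with a log2 difference of 1 and a mean under 10 counts.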
